A study of Mus musculus with 21 samples.

Results

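The genes described here are 36 genes of the integrated stress response, out of 55400 genes in the deposited count table, measured in mouse embryonic stem cells that were differentiated to motor neurons. They were selected by symbol from knowledge of the pathway: 6 transcription factors, 5 feedback and stress regulators, 3 secreted factors, 9 enzymes of amino acid synthesis and one-carbon metabolism, 6 amino acid transporters and 7 tRNA synthetases. The list was drawn up with earlier results of these libraries known, both for the inhibitor GSKJ4 and for the stages, so the counts of members below describe the list and do not support it as a set. All 36 symbols were found in the table.

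The 21 poly(A) RNA-seq libraries fell into 7 groups of 3. Wild-type C57BL/6 stem cells, kept on mitomycin-C treated fibroblast feeders, were grown as embryoid bodies and directed towards the hypaxial motor column, the motor neurons of the body wall, with 1 µM retinoic acid and 0.5 µM of the smoothened agonist SAG in the differentiation medium and, from day 4, 5 µM of the Notch pathway inhibitor DAPT. At day 5 the medium was changed to the base medium with DAPT. The D6 groups thus spent their last day without retinoic acid and SAG, which cannot be told apart from the stage in comparisons with D6. DAPT was added on day 4, when the D4 cells were collected, so the time in DAPT differed between the stages. That time cannot be told apart from the stage either, as in comparisons with D4. Untreated cells were collected at day 4 (D4), 8 h later (D4H8), at day 5 (D5) and at day 6 (D6). GSKJ4, an inhibitor of the Kdm6 histone demethylases, was given from one day before collection to the D4H8, D5 and D6 cells (from D3H8, D4 and D5). The labels call the 3 libraries of a group biological replicates. The GSKJ4 comparisons and the stage comparisons share the untreated libraries.

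The integrated stress response starts when kinases that sense amino acid shortage, misfolded protein, missing heme or viral RNA phosphorylate the initiation factor eIF2. Most translation then slows, while the mRNA of *Atf4* is translated more, and ATF4 protein, with C/EBP partners, turns on genes for amino acid synthesis, amino acid uptake and the charging of tRNAs. Other targets, such as *Ddit3* (CHOP), *Trib3* and *Ppp1r15a*, feed back on the response or lead to cell death when it is prolonged.

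The DNA element that ATF4 and C/EBP proteins are known to bind together, TGATGNAA, was looked for on both strands in the 250 bases before each annotated start (RefSeq, GRCm38.p6). It lay there in 9 of the 31 members with a promoter in that table (29.0%) and in 1056 of all 27025 genes (3.91%). As the members were chosen from knowledge of the ATF4 pathway, the higher share does not support the list. The windows around 6 of the matches are shown because these members span the transcription factors, feedback genes, enzymes and transporters described below. The capitals mark the matches, which read TTNCATCA when the element lies on the other strand.
Atf3: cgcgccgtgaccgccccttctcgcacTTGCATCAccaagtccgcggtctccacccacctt
Chac1: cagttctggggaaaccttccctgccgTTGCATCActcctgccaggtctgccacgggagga
Nupr1: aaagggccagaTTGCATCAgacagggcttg
Asns: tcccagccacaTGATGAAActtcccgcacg
Pycr1: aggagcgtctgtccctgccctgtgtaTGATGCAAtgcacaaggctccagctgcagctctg
Slc7a11: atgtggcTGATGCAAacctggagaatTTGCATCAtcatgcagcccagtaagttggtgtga
The *Atf3* window is chr1:191183410-191183469 on the minus strand, with the match 110 to 103 bases before the start. The *Chac1* window is chr2:119351023-119351082 on the plus strand. The others are on the minus strand, *Nupr1* at chr7:126625562-126625591, *Asns* at chr6:7693214-7693243, *Pycr1* at chr11:120643818-120643877 and *Slc7a11* at chr3:50443627-50443686. *Slc7a11* held the element in both orientations, and *Asns* held it 23 to 16 bases before its RefSeq start. The windows of *Nupr1* and *Asns* are shorter because an exon is annotated there. In GENCODE the matches of *Atf3*, *Nupr1* and *Asns* lie inside the gene, not before its outermost start. The remaining matches were in *Gars*, *Aars* and *Fgf21*. The cyclic AMP response element TGACGTCA, searched in the same windows, lay before 1 member, *Ppp1r15a*, and before 478 of the 27025 genes (1.77%). No promoter sequence was matched for *Cth*, *Slc7a5*, *Slc7a3*, *Nars* and *Wars*. A match is a run of letters and says nothing of binding in these cells.

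Levels between genes are given in FPKM, the fragment count of a gene divided by its length and by the mapped fragments of the library. The most abundant members at D4 were *Psat1* and *Gars*, each at a mean of 114, then *Asns* at 108 and *Phgdh* at 107, and their order is within the spread of the libraries (SD 28.9 for *Phgdh* and 45.2 for *Asns*, n = 3). *Psat1* and *Phgdh* are enzymes of serine synthesis, *Asns* makes asparagine and *Gars* charges tRNA with glycine. The 3 lowest members at D4 were *Fgf21* at 0.0367, *Gdf15* at 0.163 and *Slc7a11* at 0.943. *Fgf21*, a secreted metabolic hormone, stayed between 0 and 0.67 FPKM in all 21 libraries, and *Gdf15*, a stress-induced secreted factor, between 0 and 0.72.

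**Figure D1:**
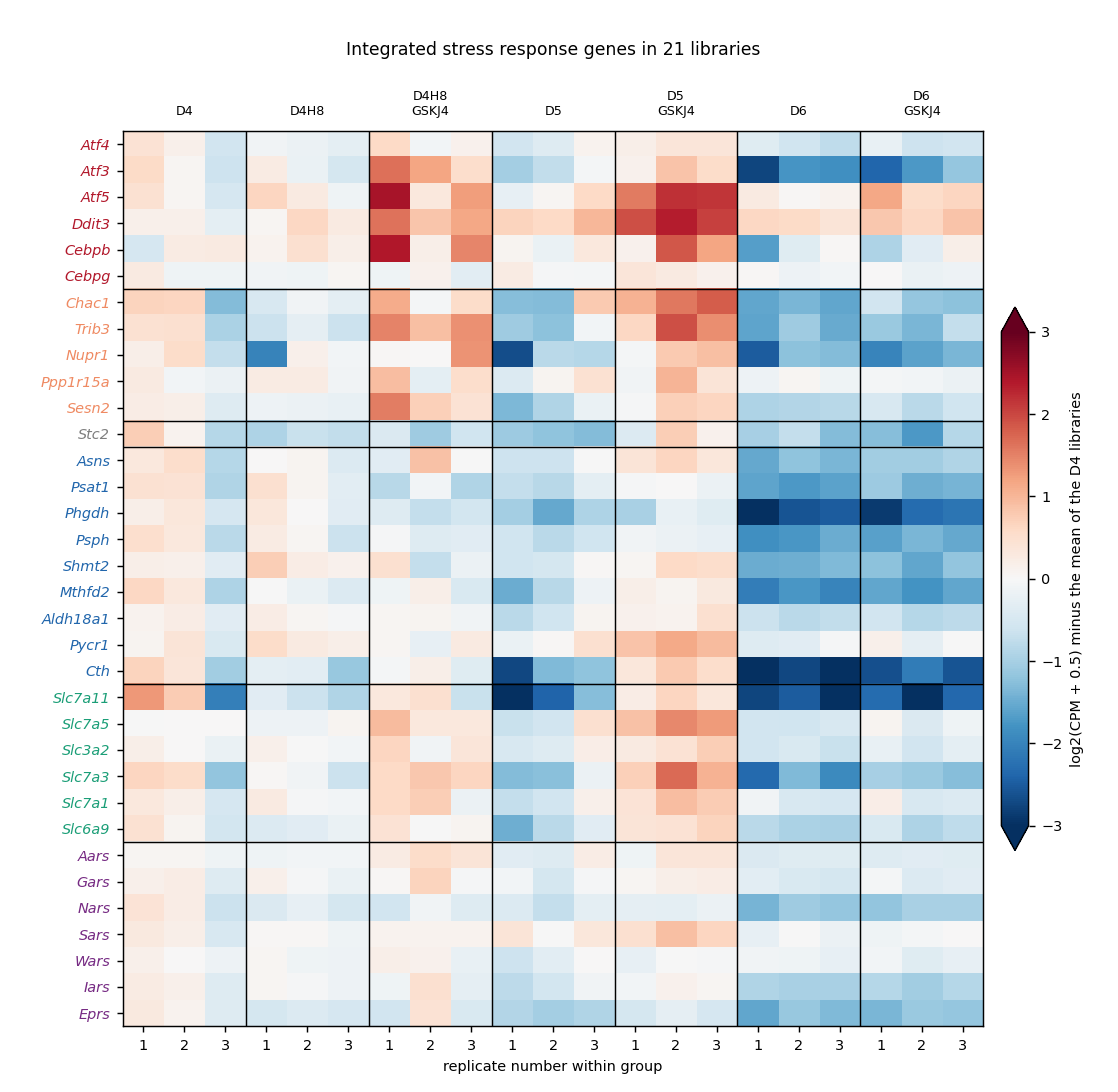
Heat map of the 34 members with a mean CPM of at least 1, by role, in the 21 libraries, numbered by replicate within each group. Colour is log2(CPM + 0.5) minus the mean of the D4 libraries, cut off at 3, and the GSKJ4-treated D5 columns are the reddest of their stage while the D6 columns are the bluest.

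The libraries of a group did not stand at one level for these genes. Over the 34 members with a mean CPM (counts scaled to a common library total) of at least 1, D4 replicate 3 was the lowest of its group for 32, at a median of 0.681 of the group mean. D5 replicate 3, untreated, was the highest of its group for 28, at a median of 1.30 times the group mean against 0.793 and 0.879 for the other two. The median over all genes was close to 1 in these libraries (0.994 to 0.998). The scaling sets it there, so it cannot show whether the genes at large shifted. Total counts ran from 14982115 to 34383842 (median 16238435), and the GSKJ4-treated D5 replicate 2 had 39381 genes at 0 against 29339 to 32805 elsewhere. Summed FPKM of 7 motor neuron markers (*Mnx1*, *Isl1*, *Isl2*, *Lhx3*, *Slc18a3*, *Chat*, *Tubb3*) ran from 33.8 to 71.2 at D4 and from 1638 to 1844 at D6, and that of 7 feeder fibroblast markers from 3.77 to 26.9 over all libraries. That of 5 pluripotency markers (*Pou5f1*, *Nanog*, *Zfp42*, *Esrrb*, *Dppa5a*) ran from 11.3 to 285 over all libraries. Each of these 5 was lowest in replicate 1 of every group.

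At D4H8, *Trib3*, *Sesn2*, *Slc7a3* and *Atf3* rose in the GSKJ4-treated cells, and no member was called lower. *Gdf15* passed the filter on low counts through the treated group, where it was high, so it is left out of the counts that follow. *Nupr1* is kept, although it too passed only with treated libraries, as its untreated counts were 13, 57 and 45 and the first library was the deepest. Over the other 34 members tested (*Fgf21* did not pass), the median log2 fold change was 0.36, against 0.022 over all 16269 genes. These tests used edgeR's quasi-likelihood test, with p-values adjusted by Benjamini-Hochberg over all genes tested and a call at 0.05. The 4 members raised compare with 2.11% of all genes raised.

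*Trib3*, a pseudokinase that restrains ATF4 activity (chr2:152337422-152344032), stood at 4.08, 5.65 and 4.43 FPKM in the untreated D4H8 libraries and at 20.4, 12.1 and 19.7 in the treated ones. Every treated library was above every untreated one, and *Trib3* rose by 1.83 on the log2 scale (SE 0.24, edgeR adjusted p = 0.0103). *Sesn2*, a leucine sensor that holds back mTORC1 (chr4:132492032-132510501), was at 26.2, 27.6 and 27.1 FPKM untreated and at 93.2, 47.5 and 45.6 treated. The untreated values were close together and the first treated library stood well above the other treated ones (log2 fold change 1.16, SE 0.27, edgeR adjusted p = 0.0459). *Slc7a3*, a transporter of cationic amino acids (chrX:101079210-101086020), was at 10.5, 10.0 and 7.02 FPKM untreated and at 17.1, 17.7 and 18.6 treated. Its treated libraries lay close together, all above the untreated ones (log2 fold change 0.92, SE 0.21, edgeR adjusted p = 0.0452). *Atf3*, a stress-induced transcription factor (chr1:191170296-191218039), was at 7.03, 5.37 and 4.40 FPKM untreated and at 20.8, 13.4 and 9.87 treated. Its groups did not overlap either (log2 fold change 1.34, SE 0.32, edgeR adjusted p = 0.0498). The number of calls moved with single libraries. No member was called without D4H8 replicate 1 or 3, and 1 without D4H8 replicate 2 or the treated replicate 1. Without the treated replicate 2, 13 were called, among them *Gdf15* and, as lowered, *Psat1*. *Trib3* was called in 4 of 6 fits that each left out 1 library, at a log2 fold change of 1.72 to 2.0 (edgeR adjusted p up to 0.0722). *Atf3* and *Sesn2* were called in 2 of these fits each, and *Slc7a3* in 1.

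The roles differed in where their members lay at D4H8. At an unadjusted p under 0.05, 10 of the 34 members were higher (14.1% of all genes) and 2, *Psat1* and *Phgdh*, were lower (11% of all genes). The transcription factors had a median log2 fold change of 1.13 and the feedback genes, *Nupr1* included, of 1.16. Among them *Cebpb* was at 1.38, *Atf5* at 1.32, *Ddit3* at 0.94 and *Chac1*, which degrades glutathione, at 0.93. *Cebpg*, a partner of ATF4, was at -0.03. *Atf4* itself was at 0.44 (SE 0.20, edgeR adjusted p = 0.214). All 6 transporters were above 0 (0.31 to 0.92), and so were all 7 tRNA synthetases (0.06 to 0.50). By contrast, 6 of the 9 enzymes were below 0, with a median of -0.17 and *Psat1* at -0.67.

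*Atf5* and *Psat1*, named after their values were seen, show the spread behind these medians. *Atf5* was at 33.96, 28.2 and 21.5 FPKM in untreated D4H8 cells and at 133, 27.0 and 59.8 after GSKJ4, so that the treated replicate 2 lay among the untreated libraries. *Psat1* went the other way, from 143, 116 and 89.7 FPKM to 63.5, 96.1 and 63.3, again with overlap. For 11 of the 34 members every treated library was above every untreated one, which was so for 16.9% of all genes. The reverse held for 1 member, *Phgdh*, and for 2734 of all 16269 genes. *Phgdh* was at 128, 108 and 86.5 FPKM untreated and at 85.55, 61.2 and 78.9 treated.

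Markers of motor neuron progenitors moved in the same libraries. The summed FPKM of *Olig2*, *Nkx6-1*, *Sox1*, *Sox2* and *Pax6* was 202.5 to 275.5 in untreated and 43.0 to 92.2 in treated D4H8 cells, with 2 of the 5 lowered, and 3 of the 7 motor neuron markers were lowered as well, beside 1.85% of all genes. Their part in the member values was not tested, and in RNA from whole cultures fewer cells of a type and less RNA per cell cannot be told apart.

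**Figure D2:**
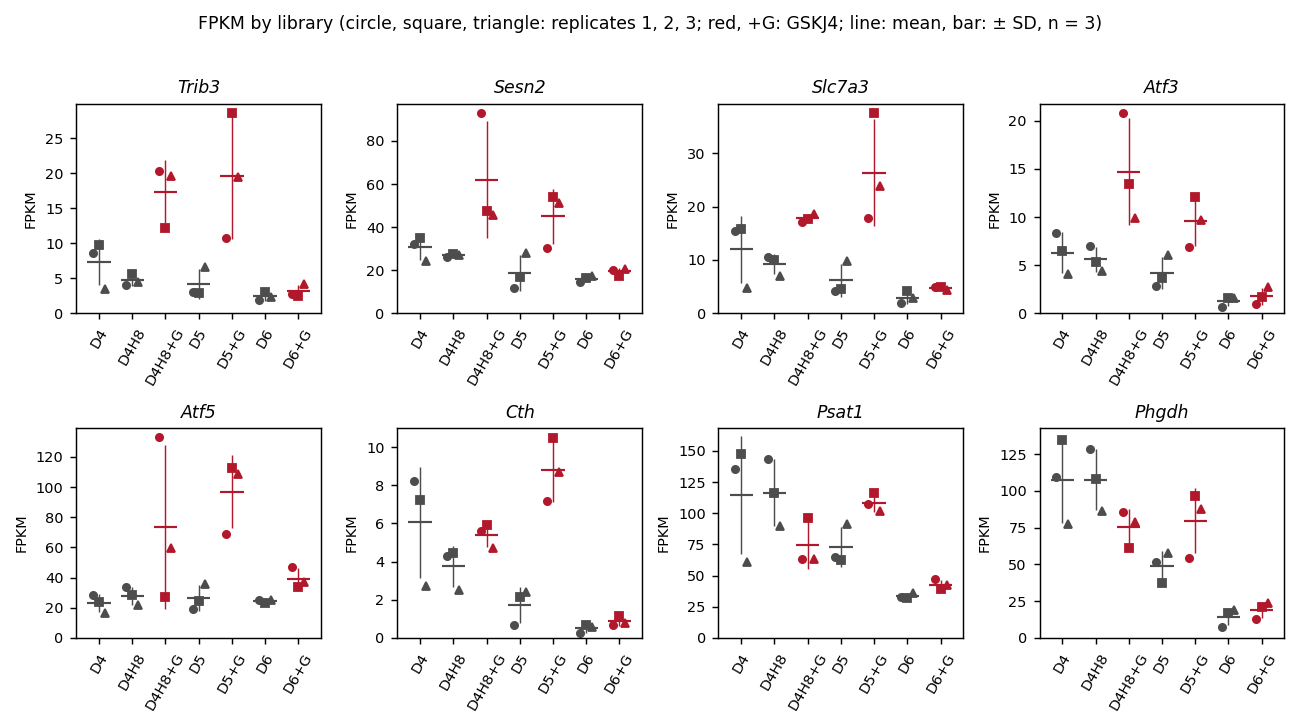
FPKM of 8 members in every library (points; circle, square and triangle for replicates 1, 2 and 3), with the mean as a line and the SD as a bar (n = 3), grey untreated and red GSKJ4. *Trib3* stood at 4.72 untreated and 17.4 treated at D4H8, while *Psat1* stood lower after GSKJ4 at D4H8 and higher at D5.

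At D5 every member tested was higher after GSKJ4. All 34 (without *Fgf21* and *Gdf15*) had a log2 fold change above 0, with a median of 0.86 against -0.017 over all genes. The member counts at D5 include *Nupr1*, which passed the filter only with treated libraries, where it was high. Its untreated counts were 1, 26 and 24. No member reached an adjusted p of 0.05 in edgeR, where 1 of 16309 genes was raised (0.00613%). At an unadjusted p under 0.05, 29 members were higher (85.3%), beside 2.31% of all genes. By DESeq2, run as an alternative, 12 members were raised, beside 0.0958% of all 30265 genes it tested. These 12 made up 41.4% of the 29 genes that DESeq2 called raised. Unlike the 16309 of edgeR, the 30265 were not filtered on low counts beforehand.

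Those 12 were *Stc2*, *Ddit3*, *Slc7a11*, *Cth*, *Slc6a9*, *Sesn2*, *Asns*, *Slc7a3*, *Trib3*, *Atf5*, *Slc7a5* and *Slc7a1*. They include 5 of the 6 transporters, and *Slc7a5* is the large neutral amino acid transporter that pairs with *Slc3a2*. Of the tRNA synthetases, DESeq2 called none.

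Each transcription factor was higher in the treated D5 cells, with a median of 1.16 on the log2 scale. *Atf5*, a factor of the mitochondrial stress response, was at 19.0, 24.3 and 35.7 FPKM untreated and at 69.1, 113 and 109 treated, with no overlap (log2 fold change 1.84, SE 0.25, edgeR adjusted p = 0.141). *Ddit3*, which promotes death under lasting stress, was at 9.46, 9.33 and 12.6 FPKM untreated and at 24.0, 33.9 and 27.2 treated (log2 fold change 1.40, SE 0.20, edgeR adjusted p = 0.152). The treated libraries of both genes lay far above their untreated ones. *Atf4* was at 0.56 and *Cebpg*, with the smallest difference of the 6, at 0.21.

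The feedback genes had a median of 1.78 with *Nupr1* included. That gene passed the filter only with treated libraries and was the highest of them, at 2.26. *Trib3* was at 3.08, 2.83 and 6.60 FPKM untreated and at 10.7, 28.6 and 19.5 treated (log2 fold change 2.18, SE 0.40, edgeR adjusted p = 0.276). *Chac1* was at 4.20, 4.29 and 19.4 FPKM untreated and at 22.6, 34.8 and 41.1 treated. The third untreated library was thus close to the lowest treated one for *Chac1*, and without that library its log2 fold change was 2.88 in place of 1.78. *Nupr1*, a small chromatin protein induced by stress, was near the bottom of detection, at 0.03, 0.62 and 0.61 FPKM untreated and 1.18, 2.41 and 2.63 treated. *Ppp1r15a*, which directs the phosphatase that reverses eIF2 phosphorylation, was at 0.44 on the log2 scale and did not pass at an unadjusted p of 0.05. *Stc2*, a secreted glycoprotein, was at 1.6, 1.53 and 1.45 FPKM untreated and 2.67, 6.48 and 4.20 treated.

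The enzymes were all higher at D5, at 0.51 to 2.29 on the log2 scale with a median of 0.75. *Cth*, which makes cysteine from cystathionine (chr3:157894248-157925077), had the largest difference of the 9. Its libraries stood at 0.67, 2.15 and 2.39 FPKM untreated and at 7.15, 10.5 and 8.72 treated, so the lowest treated library was far above the highest untreated one. *Asns* was at 65.8, 68.0 and 106 FPKM untreated and at 135, 172 and 138 treated. *Psat1*, lower than untreated at D4H8, was here at 64.9, 62.3 and 91.1 FPKM untreated and at 107, 116 and 101.7 treated.

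The largest difference of all members at D5 was that of the transporter *Slc7a11* (chr3:49892526-50443614), the cystine side of the cystine and glutamate exchanger. It was low throughout, at 0.05, 0.10 and 0.26 FPKM untreated and 0.79, 1.13 and 0.91 treated (log2 fold change 2.75, SE 0.52, edgeR adjusted p = 0.283). Part of its exons is over 95% identical to α-tubulin genes that were far more abundant, so reads may have been split between them. *Slc7a3* was at 4.18, 4.49 and 9.81 FPKM untreated and at 17.8, 37.5 and 23.8 treated. The 6 transporters had a median of 1.37, with *Slc3a2*, the partner of *Slc7a5*, lowest at 0.69.

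The tRNA synthetases were the role with the smallest differences at D5, at 0.19 (*Wars*) to 0.51 (*Eprs*) with a median of 0.36. *Eprs*, which charges glutamate and proline tRNAs (chr1:185363044-185428360), was at 18, 16.9 and 18.4 FPKM untreated and 23.5, 29.5 and 25.3 treated. *Aars*, *Nars* and *Wars* did not pass at an unadjusted p of 0.05.

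For 28 of the 34 members every treated D5 library was above every untreated one, which was so for 5.27% of all genes. The untreated replicate 3 was the library nearest to the treated ones: without it 4 members were called in edgeR (*Chac1*, *Slc7a3*, *Atf5* and *Slc7a5*), and without the treated replicate 2, the library with the most genes at 0, none was called and 24 passed at an unadjusted p under 0.05. The treated libraries stood at a median of 1.56, 1.98 and 1.88 times the untreated D5 mean, against 0.949 to 0.992 over all genes. The scaling holds the latter near 1. Summed motor neuron markers were at 1127 to 1355 FPKM untreated and 890 to 1098 treated, and summed proliferation markers (*Mki67*, *Top2a*, *Cdk1*, *Ccnb1*) at 110 to 166 and 109 to 153. Whether the motor neuron markers bear on the members was not tested.

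**Figure D3:**
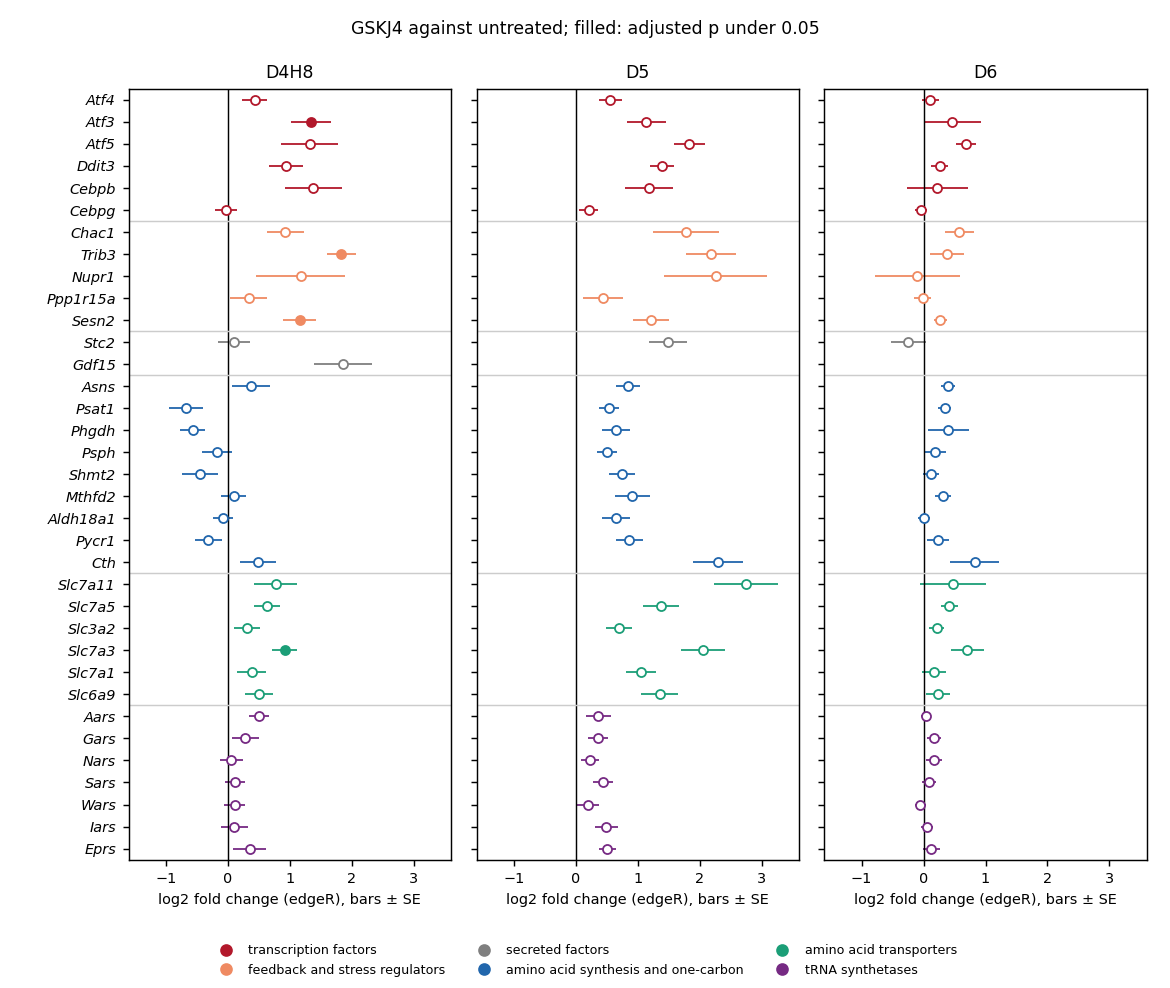
Log2 fold change of GSKJ4 against untreated for each member (edgeR; bars, SE) at D4H8, D5 and D6, coloured by role, with filled points for members past an adjusted p of 0.05. The points at D5 all lie right of 0 but none is filled, while 4 are filled at D4H8.

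At D6 the differences were smaller. The median over 34 members was 0.22, against 0.0037 over all genes, and 29 were above 0. No member was called in edgeR, where 0% of 16301 genes were raised, nor by DESeq2. At an unadjusted p under 0.05, 8 members were higher, beside 0.54% of all genes: *Atf5*, *Asns*, *Slc7a5*, *Psat1*, *Slc7a3*, *Sesn2*, *Chac1* and *Mthfd2*. At this stage treated and untreated libraries with one number departed from their group means in the same way, so a fit with the number as a block was run beside it. With the block, 6 members were raised, beside 0.294% of all genes.

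In the blocked fit *Atf5* was 0.67 higher on the log2 scale (SE 0.069, edgeR adjusted p = 1.3e-05). Its libraries stood at 25.1, 23.0 and 25.0 FPKM untreated and at 47.2, 33.6 and 37.0 treated, with no overlap. *Asns* was at 31.8, 43.3 and 40.0 FPKM untreated and at 45.8, 49.6 and 56.5 treated, and *Slc7a5* at 23.9, 25.5 and 28.5 against 38.5, 29.0 and 36.6. Both were higher within each numbered pair (blocked log2 fold changes 0.40 and 0.41, edgeR adjusted p = 0.000609 and 0.00197). The other 3 were *Psat1* at 0.33, *Phgdh* at 0.43 and *Slc7a3* at 0.73. The treated groups lay wholly above the untreated for 9 members, beside 2.73% of all genes. All 9 enzymes and all 6 transporters were above 0 at D6, while *Stc2* was at -0.25 and the tRNA synthetases had a median of 0.09.

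The difference between stages was tested itself, in 1 fit over the 18 libraries of D4H8, D5 and D6. No member passed an adjusted p of 0.05 for D5 minus D4H8, D6 minus D4H8 or D6 minus D5, where 0.249%, 0.735% and 0% of all 18103 genes did. At an unadjusted p under 0.05, the GSKJ4 effect was higher at D5 than at D4H8 for 12 members (5% of all genes), 8 of them enzymes. *Pycr1*, which makes proline, had the lowest p of these, with a difference of 1.18 (SE 0.29, edgeR adjusted p = 0.123), and *Psat1* differed by 1.2 (SE 0.32, edgeR adjusted p = 0.147). DESeq2 called 3 members there, *Pycr1*, *Psat1* and *Cth*, and none in the other two contrasts. D6 minus D4H8 held 2 members with a higher effect at D6 (7.15% of all genes), *Psat1* and *Phgdh*, and 3 with a lower one (6.53% of all genes), *Trib3*, *Sesn2* and *Ddit3*. For D6 minus D5, 13 members had a lower effect at D6 (0.945% of all genes), with *Stc2* at -1.70, *Trib3* at -1.78 and *Ddit3* at -1.11.

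**Figure D4:**
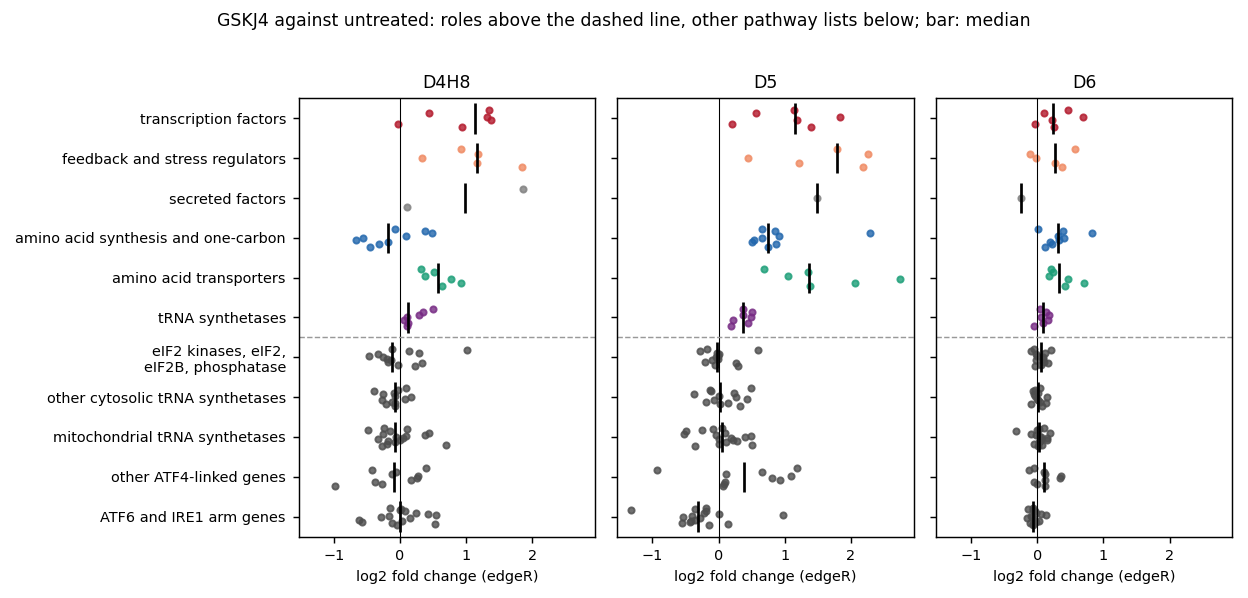
Log2 fold change of GSKJ4 against untreated (edgeR) at D4H8, D5 and D6 for the members by role, above the dashed line, and for 5 other pathway lists, below it, with the median as a bar. At D5 the transporters had a median of 1.37 and the feedback genes, *Nupr1* included, of 1.78. The medians were -0.02 for the eIF2 list and 0.03 for the other cytosolic tRNA synthetases.

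Other genes of the pathway were taken from 5 lists, also drawn up with earlier results known. None of their genes was called for GSKJ4 in edgeR at D4H8, D5 or D6 (lowest edgeR adjusted p 0.0688, 0.169 and 1.00). The eIF2 kinases, eIF2 and eIF2B subunits and *Ppp1r15b* had a median of -0.02 at D5, with 1 of 13 higher at an unadjusted p under 0.05. The 13 other cytosolic tRNA synthetases had a median of 0.03, with 1 higher, and the 17 mitochondrial ones of 0.05, with 1 higher and 1 lower. Among 10 other ATF4-linked genes, 5 were higher and 1, *Ddit4*, lower, with a median of 0.39. *Aldh1l2* and *Pck2*, mitochondrial enzymes of folate and phosphoenolpyruvate metabolism named after their values were seen, were at 1.19 and 1.09. *Aldh1l2* was at 2.95, 2.61 and 3.65 FPKM untreated and at 6.91, 7.85 and 6.85 treated. The 16 genes of the ATF6 and IRE1 arms of the unfolded protein response had a median of -0.32, with 6 lower at an unadjusted p under 0.05, beside 2.39% of all genes, and 1 higher (*Herpud1*, 0.98). *Hspa5* (BiP), their main chaperone, was at 235, 201 and 199 FPKM untreated and at 144, 160 and 149 treated (log2 fold change -0.54), which missed the adjusted threshold too.

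In untreated cells most members were lower at D6 than at D4. Against D4, 23 of 34 members had fallen at D6, beside 31% of all genes, and 1, *Ddit3*, had risen, beside 32.9% of all genes. The median log2 fold change was -0.96, against -0.039 over 17519 genes, and 32 members were below 0. For 22 members every D6 library was below every D4 library, which was so for 34.3% of all genes. With upper-quartile scaling the median over all genes moved to -0.19 and that of the members to -1.11.

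Of the enzymes 8 of 9 fell, all but *Pycr1*, with a median of -1.72. *Cth* was at 8.21, 7.21 and 2.74 FPKM at D4 and at 0.26, 0.68 and 0.55 at D6 (log2 fold change -3.58, SE 0.54, edgeR adjusted p = 4.9e-05). *Phgdh* was at 109, 135 and 77.2 FPKM at D4, 128, 108 and 86.5 at D4H8, 51.3, 37.3 and 57.7 at D5 and 7.59, 17.2 and 18.8 at D6. It was not called over the first 8 h and then fell at both later steps (D6 against D4, log2 fold change -2.84, edgeR adjusted p = 2.6e-06). Its mRNA resembles many processed pseudogenes, each with a mean count under 10.

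The other roles fell less uniformly. *Slc7a11* was at 1.54, 1.15 and 0.14 FPKM at D4 and at 0.06, 0.09 and 0.03 at D6 (log2 fold change -3.99, SE 0.79, edgeR adjusted p = 0.000531). The third D4 library lay near the D6 values. Of the 6 transporters 4 fell, with a median of -0.75. *Atf3* was at 8.38, 6.44 and 4.09 FPKM at D4 and at 0.65, 1.6 and 1.57 at D6 (log2 fold change -2.28, SE 0.39, edgeR adjusted p = 0.00017). *Nupr1* (chr7:126623249-126630861) was at 1.28, 1.88 and 0.69 FPKM at D4 and at 0.05, 0.40 and 0.38 at D6 (-2.17 on the log2 scale, SE 0.88, edgeR adjusted p = 0.0428). The call of *Nupr1* was lost in 6 of 12 fits that each left out 1 library: D4 replicate 1 or 2, D4H8 replicate 3, or any of the D6 libraries (edgeR adjusted p up to 0.127). Of the feedback genes 4 of 5 fell, all but *Ppp1r15a*. *Atf4* fell by 0.59, a call lost without D4 replicate 1 or 2 or D6 replicate 2 or 3 (edgeR adjusted p up to 0.14).

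*Stc2* (chr11:31357307-31370074) was at 5.46, 3.89 and 2.01 FPKM at D4 and at 1.59, 2.08 and 1.40 at D6, with overlap between the lowest D4 and the highest D6 library (log2 fold change -1.14, SE 0.31, edgeR adjusted p = 0.00588). *Eprs* was at 37.0, 36.1 and 26.7 FPKM at D4 and at 10.4, 14.9 and 13.4 at D6 (log2 fold change -1.32, SE 0.16, edgeR adjusted p = 8.6e-06). Of the 7 tRNA synthetases 4 fell (*Eprs*, *Nars*, *Iars* and *Gars*), and of the 13 other cytosolic ones 11 did, with medians of -0.41 and -0.84. The call of *Gars* (-0.41 on the log2 scale) held in 8 of 19 alternatives and in 4 of 12 fits with a library left out, where it ran from -0.63 to -0.30 (edgeR adjusted p up to 0.181). *Ddit3* was at 6.01, 6.66 and 5.00 FPKM at D4 and at 8.4, 8.76 and 8 at D6, without overlap (log2 fold change 0.57, SE 0.20, edgeR adjusted p = 0.0231). That call was lost with upper-quartile scaling and without D4 replicate 3 or D6 replicate 1 or 2 (edgeR adjusted p up to 0.129). The proliferation markers fell over the same course, 4 of 4, from a summed 335.5 to 378.0 FPKM at D4 to 22.6 to 67.5 at D6, and the motor neuron markers rose, 7 of 7. Their part in the fall of the members was not tested.

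**Figure D5:**
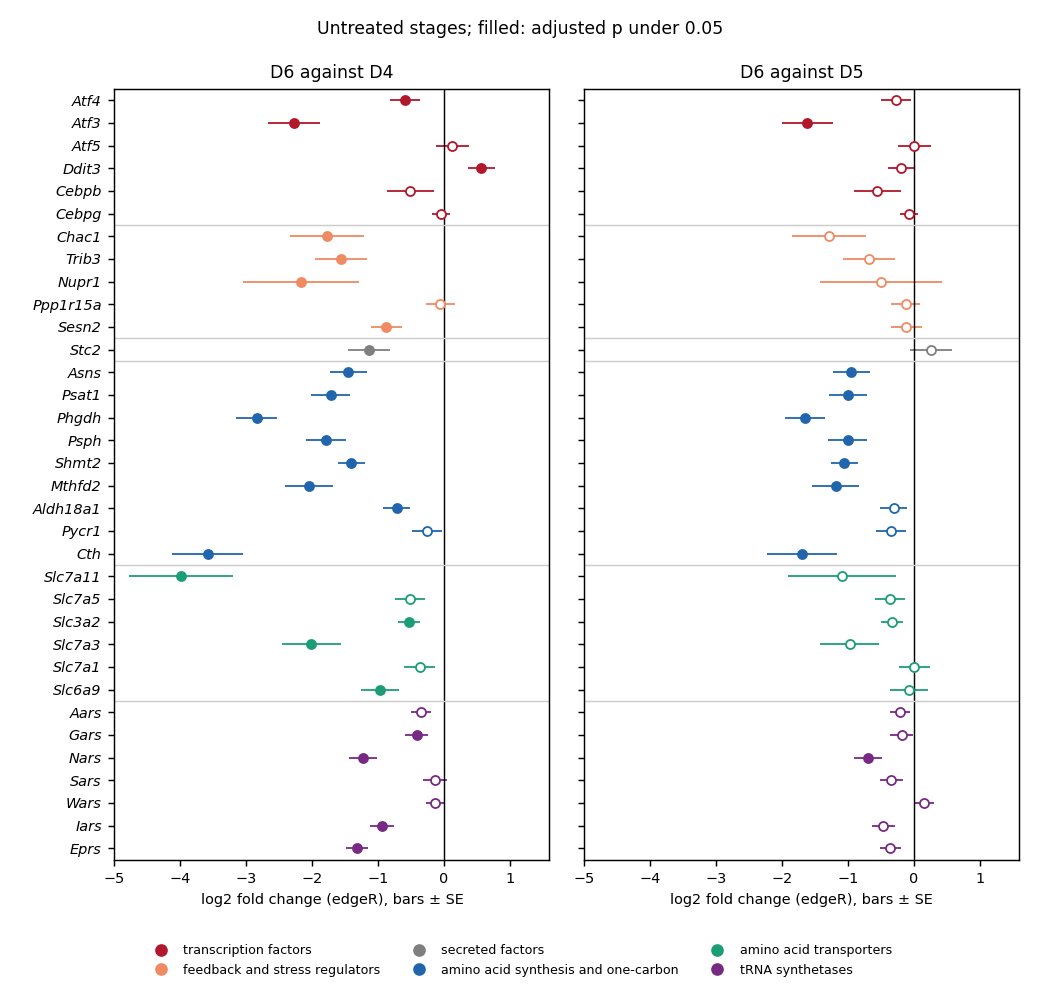
Log2 fold change between stages of untreated cells for each member (edgeR; bars, SE), coloured by role, with filled points for members past an adjusted p of 0.05. Between D4 and D6, 23 members fell and 1 rose, and the transporter *Slc7a11* and the enzyme *Cth* lie farthest to the left.

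By step, no member was called between D4 and D4H8, where 0.32% of all genes were lowered in edgeR. At an unadjusted p under 0.05, *Stc2*, *Nars* and *Eprs* were lower (5.66% of all genes), and DESeq2 called 2 members lowered. From D4H8 to D5, *Phgdh* fell by 1.14 and *Shmt2*, the mitochondrial serine hydroxymethyltransferase, by 0.70 on the log2 scale (edgeR adjusted p = 0.00952 and 0.0175), beside 10.5% of all genes. From D5 to D6, 9 members fell, beside 15.1% of all genes, 7 of them enzymes together with *Atf3* and *Nars*. These counts moved with single libraries. Without D5 replicate 3, whose member levels were high, 10 members were lowered between D4H8 and D5 and 4 between D5 and D6, and without D4 replicate 3, whose levels were low, 8 and 14. Without D4H8 replicate 1 or D5 replicate 1 the first of these counts was 1, and without D6 replicate 1 the second was 4.

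Some members share sequence with a neighbour, and whether the counting used strand is not given in the sources used here. Exons of *Atf5*, *Ddit3*, *Cebpb*, *Cebpg*, *Psph*, *Shmt2*, *Slc6a9*, *Ppp1r15a* and *Aars* overlap another gene on the other strand. *Aars* and *Cebpg* also share exon with a gene on their own strand, and *Ddit3* shares 105 exon bases with its second record. The longest overlap beside an abundant neighbour was that of *Psph* with *Cct6a*, of 452 bases. Values of these members are therefore less certain than those of *Trib3*, *Sesn2* or *Asns*, for which no such overlap was found.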

How the data were processed

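The authors trimmed poly(A) RNA-seq reads with Fastp, aligned them to mm10 with HISAT2, handled the alignments with SAMtools and counted reads per gene with HTSeq; they deposited these raw counts, without normalization, and FPKM values that they computed from the counts and gene lengths. FPKM recomputed here from the deposited counts differed by at most 0.005. DESeq2 was the authors' test.

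From the counts, edgeR 4.0.16 (R 4.3.3; TMM scaling, filterByExpr with a minimum count of 10, quasi-likelihood F-test, Benjamini-Hochberg adjustment over all tested genes, threshold 0.05) compared GSKJ4 with untreated cells within each stage on its 6 libraries, stages on the 12 untreated libraries, and GSKJ4 effects between stages on 18 libraries. Fold changes are from the counts, and FPKM serves for levels. Symbols and coordinates come from GENCODE M21 (GRCm38), and 260 of 55400 identifiers had no symbol. Where a symbol had 2 identifiers, as for *Ddit3*, the one with more exonic bases was kept. Library totals of 14982115 to 34383842 counts limit precision mainly for members under about 1 FPKM. The scripts were tested on simulated data.

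*Gdf15* was left out of the member counts at D4H8 after its values were seen. *Nupr1*, which passed the filter only with treated libraries at D4H8 and D5, was kept in the counts. The members and all gene lists were chosen with earlier results of these data known. Library values are given for members called for GSKJ4 and, in each role, for the called member with the largest change from D4 to D6. Values of *Atf5*, *Ddit3*, *Chac1*, *Asns*, *Psat1*, *Phgdh*, *Slc7a5*, *Aldh1l2* and *Hspa5* were added after they were seen. Same-numbered treated and untreated libraries had correlated deviations from their group means at D6 (0.663, 0.316 and 0.446), which was taken as pairing, but not in every pair at D4H8 (0.440, 0.0731 and 0.255) or D5 (0.223, 0.0384 and 0.209). The pluripotency markers went with the number at all stages: *Pou5f1* was at 2.57, 11.7 and 9.68 FPKM at D5 and at 2.18, 12.0 and 9.95 after GSKJ4. The main fits at D4H8 and D5 do not take this into account. The numbers come from the labels, which call the libraries biological replicates and do not say that a number is shared between groups by design. Alternatives were DESeq2 1.42.0, other scalings, other filters, a replicate block, one fit over 21 libraries and leaving out each library.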

Additional observations from a re-analysis of the deposited data

How the results depend on the processing

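The count of members called from D4 to D6 (24) stayed within 1.5 times under each alternative run (20 to 26 with single libraries left out). The other counts moved, and the cause was not tested. For GSKJ4 at D4H8 (4), DESeq2 called 8 members, no filter 10 and the replicate block 7. Single libraries left out gave 0 to 13. These were 0 without D4H8 replicate 1 or 3 and 1 without D4H8 replicate 2 or the treated replicate 1. Without the treated replicate 2 there were 13. *Gdf15* is among the 7 and the 13, *Fgf21* among the 10, and *Psat1*, as lowered, among the 10 and the 13. At D5 (0), DESeq2 called 12, no filter 19, one fit over 21 libraries 3 and the replicate block 1, with 0 to 4 when libraries were left out (4 without D5 replicate 3). At D6 (0) only the replicate block gave calls, 6, and leaving libraries out gave 0. For D4H8 against D4 (0), DESeq2 called 2, no filter 4, and 0 to 3 with libraries left out (3 without D4 replicate 3). For D5 against D4H8 (2), DESeq2 called 4, no filter 11, one fit 1, and 1 to 10 with libraries left out (8 without D4 replicate 3, 10 without D5 replicate 3, 1 without D4H8 or D5 replicate 1). For D6 against D5 (9), no filter called 14, and 4 to 14 with libraries left out (14 without D4 replicate 3, 4 without D5 replicate 3 or D6 replicate 1). For D5 minus D4H8 (0), DESeq2 called 3, no filter 5, the replicate block 1, and 0 to 1 with libraries left out (1 without the treated D4H8 replicate 1 or 2). For D6 minus D4H8 (0), no filter called 3, and 0 to 1 with libraries left out (1 without the treated D4H8 replicate 2). For D6 minus D5 (0), no filter called 1. Of 715 values of single called members under the alternatives, 656 kept their side of the threshold, 59 lost it and none changed sign. For GSKJ4 at D4H8, 36 kept it and 16 lost it. *Trib3* at D4H8 was called in 11 of 13 alternatives, *Atf3* and *Sesn2* in 9 each and *Slc7a3* in 7. With *Gdf15* counted, 11 members were higher at an unadjusted p under 0.05 at D4H8, in place of 10. With 3 libraries a group, D4 replicate 3 and D5 replicate 3 stood apart for these genes. Low counts limit the values of *Fgf21*, *Gdf15*, *Nupr1* and *Slc7a11*.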
